A study of Mus musculus with 19 samples.

Results

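The heat shock chaperones described here are 10 genes, picked by name from the textbook heat shock set out of 24348 genes counted in mouse perigonadal fat. They are the stress-inducible HSP70 genes Hspa1a and Hspa1b, their HSP40 partner Dnajb1, the HSP110 exchange factor Hsph1, the small heat shock protein Hspb1, the HSP90 genes Hsp90aa1 and Hsp90ab1, the constitutive HSP70 gene Hspa8, and the mitochondrial chaperonin genes Hspd1 (HSP60) and Hspe1 (HSP10). All 10 passed the filter on low counts and were among the 16015 genes tested.

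Heat shock chaperones bind unfolded proteins and help them fold. HSP70 binds exposed hydrophobic stretches with the help of an HSP40 protein and lets go of its client when an exchange factor swaps its nucleotide, HSP90 acts later on signalling proteins such as kinases and steroid receptors, and HSP60 with HSP10 encloses proteins imported into mitochondria. When unfolded proteins build up, heat shock factor 1 is freed from chaperones, binds inverted repeats of the unit GAA in promoters and drives the inducible members, whereas Hspa8 and Hsp90ab1 are made in resting cells.

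Whole perigonadal fat of C57BL/6 mice was profiled after weight gain on a 60% high-fat diet (HFD) or on Ensure, a liquid nutritional drink. Mice on HFD were sampled at peak weight while fed (4 libraries, HFD fed) or after 24 hours without feeding (4 libraries, HFD fasted), and mice on Ensure likewise while fed (6 libraries, Ensure fed) or after the 24 hours (5 libraries, Ensure fasted). No genotype, transgene or drug is named in the labels, and no group on ordinary chow was analysed here. Libraries are called by their group and the number in their title, for example Ensure fasted 5, and since no label says in words that each came from its own animal, the tests speak only of the spread among libraries, which may be technical.

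Counts assigned to genes ran from 12.82 to 22.55 M per library, and levels are given as counts per M counts after TMM scaling (CPM). Adipocyte markers were high in every library, summing to 10277 to 27526 CPM, and the lowest sum was that of Ensure fasted 5. That library also carried 9260 CPM of 10 smooth muscle markers, where its group's median was 1101 CPM, and 9874 CPM of epididymis and testis markers. In 4 other libraries the epididymis and testis markers summed to 1123 CPM (Ensure fasted 2), 658 CPM (Ensure fed 10), 313 CPM (HFD fasted 24) and 234 CPM (Ensure fed 12), whereas the other 14 libraries had at most 80.4 CPM. A list of 8 epithelial markers split the libraries differently. Of those 14, HFD fed 21, HFD fasted 26 and Ensure fed 16 had epithelial sums of 344, 427 and 342 CPM. The rest of the 14 had at most 91.5 CPM, as did Ensure fed 10 and 12. Fits without the 5 libraries rich in epididymis and testis markers therefore keep libraries with raised epithelial RNA. Its part in the member levels was not tested. HFD fasted 28 had the highest macrophage marker sum, 5909 CPM. In whole tissue, a change in the share of a cell type and a change in RNA per cell cannot be told apart. All HFD libraries were in sequencing lane 7, whereas 4 of 5 Ensure fasted libraries were in lane 5 and 4 of 6 Ensure fed libraries were in lane 6.

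Per kilobase of exon, Hsp90ab1 had the highest level, with a mean of 318 CPM per kb over the 19 libraries (range 256 to 373). Hspa8 followed with 81.5 (57.0 to 117), then Hspd1 with 44.6 (26.2 to 62.4), Hspe1 with 34.0 (21.4 to 44.3) and Hspb1 with 30.2 (22.3 to 36.2). The inducible HSP90 gene Hsp90aa1 had 17.7 CPM per kb (10.7 to 25.1), Hsph1 had 13.2 (9.41 to 20.0) and Dnajb1 had 12.3 (10.7 to 17.8). The inducible HSP70 genes were lowest, with 3.31 CPM per kb for Hspa1b (1.64 to 18.2) and 1.71 for Hspa1a (0.670 to 8.69). The ranges of neighbours over the 19 libraries overlapped along this order except between Hsp90ab1 and Hspa8. The top of the Hspa1b range was Ensure fasted 5. Such overlap does not say how 2 genes rank within a library, which was not compared. Many of these genes have near copies: of all 50-base stretches of the transcript, 66.3% for Hspa1a, 62.3% for Hspa1b, 74.8% for Hspa8, 58.5% for Hsp90aa1, 51.6% for Hspb1 and 44.8% each for Hspd1 and Hspe1 also occur in a transcript of another annotated gene, against 4.49% for Hsp90ab1, 0.441% for Dnajb1 and 0% for Hsph1. Reads that align to more than 1 place were set apart in the deposited counts, so the levels of the first 7 genes, and the split between Hspa1a and Hspa1b, are uncertain.

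**Figure D1:**
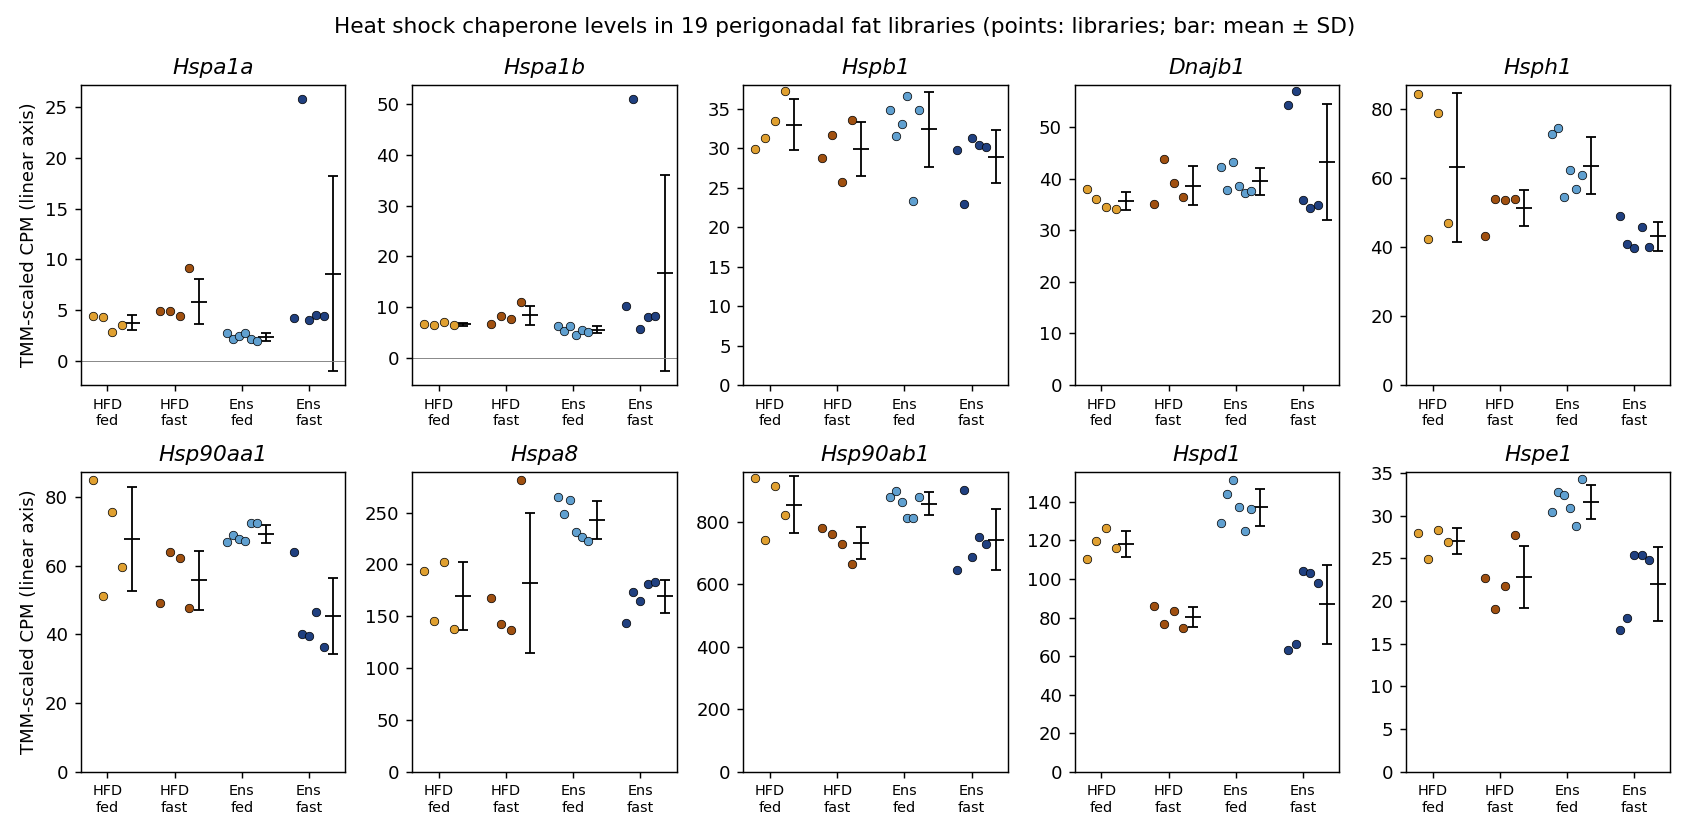
TMM-scaled CPM (linear axis) of each member in all 19 libraries, by group; each point is a library and the bar beside the points is the group mean ± SD. Hspd1 was lower in every fasted library than in every fed library of the same diet, and the Ensure fasted means of Hspa1a and Hspa1b carry 1 library, at 25.8 and 51.1 CPM.

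With Ensure, 24 hours without feeding split the set. The inducible HSP70 genes Hspa1a and Hspa1b rose, while the constitutive HSP70 gene Hspa8, Hsp90aa1, Hsph1 and both mitochondrial chaperonin genes fell by 0.52 to 0.66 on the log2 scale. These calls depend on the fit. With sequencing lane as a term 0 of 10 remain, where 760 of 16015 genes were called. Without the 5 libraries rich in epididymis and testis markers 2 of 10 remain, where 1145 of 15553 genes were called. With all libraries and no lane term, 7 of 10 members passed edgeR's quasi-likelihood test at an adjusted p under 0.05, 2 higher and 5 lower, where 20.3% of all genes tested passed, 10.6% higher and 9.77% lower. The median log2 fold change was -0.36 over the 10 members and 0.11 over all genes tested. With HFD, 0 of 10 passed edgeR's test (1.22% of all genes tested did) and 1 had an unadjusted p under 0.05. DESeq2 called 1 of 10 and 633 of 16015 genes, and limma voom called 3 of 10 and 2974 of 16015 genes. In both diets 6 members had a negative and 3 a positive log2 fold change, and Hspa8 had opposite signs.

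**Figure D2:**
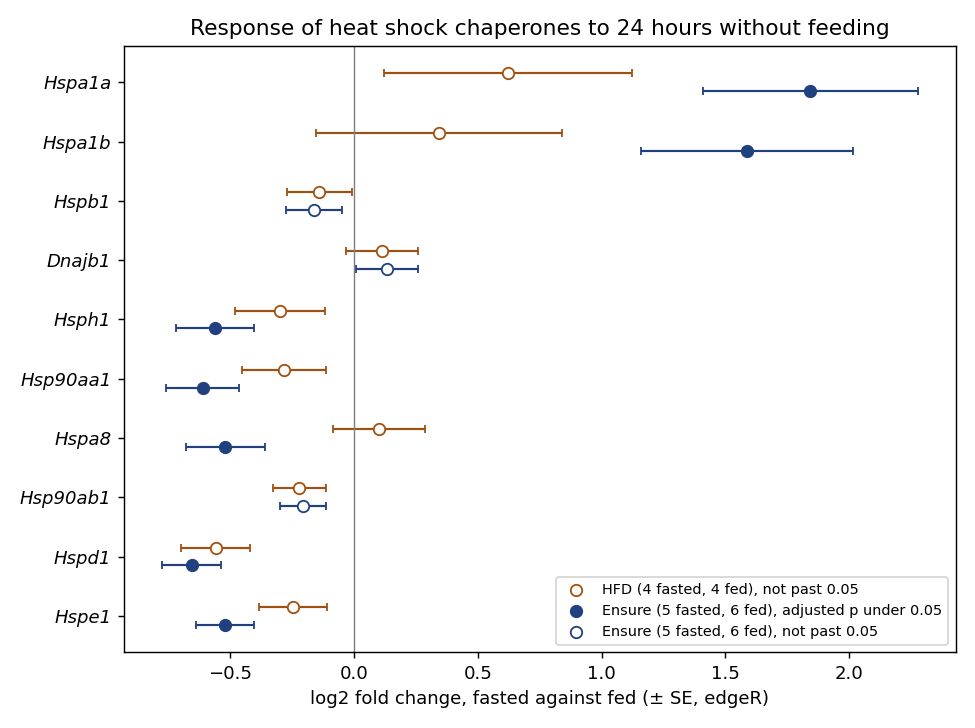
Log2 fold change of each member, fasted against fed, with its standard error, for HFD (orange) and Ensure (blue); filled points passed an adjusted p under 0.05. The 7 filled points are all Ensure, with Hspa1a (1.84) and Hspa1b (1.59) to the right and Hspd1 (-0.66) farthest to the left.

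Hspa1a and Hspa1b encode nearly the same protein, the HSP70 that cells make after heat or proteotoxic stress. Their starts lie on the minus strand of chromosome 17, and the 150 bases before each start (RefSeq, GRCm38.p6, chr17:34972157-34972306 and chr17:34959239-34959388) differ at 1 base. They are shown because this pair rose with Ensure fasting, and the capitals mark a heat shock element of paired units, GAANNTTC, at 104 bases before the start in both.
Hspa1a: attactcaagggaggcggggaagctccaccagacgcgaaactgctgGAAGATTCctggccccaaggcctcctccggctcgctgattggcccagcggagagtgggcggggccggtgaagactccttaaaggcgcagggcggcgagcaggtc
Hspa1b: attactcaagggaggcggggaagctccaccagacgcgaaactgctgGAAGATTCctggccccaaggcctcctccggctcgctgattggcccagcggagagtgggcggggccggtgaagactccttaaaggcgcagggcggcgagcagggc
A pair of units, GAANNTTC or TTCNNGAA (both read the same on either strand), occurred in 15.06% of all 32851 RefSeq promoter windows of 300 bases. Counted by gene, 16.97% of 27025 genes had it in a window, as did 6 of the 7 members that had one. Those 6 are not separate promoters. The Hspa1a and Hspa1b windows were 98.67% identical, and the matches of Hspd1 and Hspe1 lie in a run that both share. The members were also picked as textbook heat shock genes, so their count is a description. Hspa8, Hsp90aa1 and Hsp90ab1 had no window in that table.

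In the Ensure fed libraries Hspa1a ran from 1.99 to 2.82 CPM with a median of 2.32 CPM. The Ensure fasted libraries had 4.04, 4.27, 4.46, 4.55 and 25.8 CPM, so each fasted library was above each fed one, and 4 of the 5 lay close together. The log2 fold change was 1.84 ± 0.43 (SE; edgeR adjusted p = 0.00725). Without Ensure fasted 5, the library at 25.8 CPM, it was 0.80 (edgeR adjusted p = 0.0119). With the 5 libraries rich in epididymis and testis markers left out it was 0.92 (edgeR adjusted p = 0.0508). For Hspa1b, the Ensure fed libraries had 4.59 to 6.36 CPM (median 5.41 CPM) and the fasted ones 5.72, 7.97, 8.32, 10.1 and 51.1 CPM, which overlap. Its log2 fold change of 1.59 ± 0.43 (edgeR adjusted p = 0.0161) became 0.50 (adjusted p = 0.0492) without Ensure fasted 5 and 0.38 (adjusted p = 0.229) without the 5 libraries. Ensure fasted 5 is also the library with 9260 CPM of smooth muscle markers, 9 of which rose in this contrast, and 9874 CPM of epididymis and testis markers; their part in its HSP70 level was not tested. The counts of the pair were also added, so that the split of counted reads drops out, though reads that aligned to both copies stay left out. The log2 fold change of the sum was 1.67 ± 0.42 (edgeR adjusted p = 0.0109) with all libraries and 0.60 ± 0.15 (adjusted p = 0.0112) without Ensure fasted 5. The call ended without the 5 marker-rich libraries (0.56, edgeR adjusted p = 0.0788).

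With HFD the fed libraries had 2.84, 3.58, 4.36 and 4.48 CPM of Hspa1a and the fasted ones 4.48, 4.92, 4.95 and 9.15 CPM. The groups did not overlap, by a narrow margin, and the log2 fold change of 0.62 ± 0.50 did not pass (edgeR adjusted p = 0.579). Hspa1b had 6.42, 6.46, 6.59 and 7.01 CPM fed and 6.75, 7.65, 8.17 and 11.0 CPM fasted, with a log2 fold change of 0.34 ± 0.50 (edgeR adjusted p = 0.761). For the summed pair the HFD log2 fold change was 0.45 ± 0.49 (edgeR adjusted p = 0.691). All groups share 1 estimate of the spread, and without Ensure fasted 5 the HFD value was 0.48 ± 0.17 (edgeR adjusted p = 0.145). In that fit the Ensure value was 0.60 ± 0.15, and the responses differed by 0.12 ± 0.23. The highest value of each gene was in HFD fasted 28, the library with the most macrophage marker RNA. HFD fasted 28 and Ensure fasted 5 also had the highest shares of reads that were not unique (27.7% and 25.97%, at most 23.48% elsewhere) and outside genes (17.32% and 16.58%, at most 15.28% elsewhere); the part of these in the HSP70 values was not tested.

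Dnajb1 is the HSP40 protein that hands clients to HSP70, and Hspb1 (HSP25 in mouse) is a small heat shock protein that holds unfolded clients and binds actin. Neither passed the test in any of the 5 contrasts in the fit of all libraries. Dnajb1 had 37.2 to 43.3 CPM in Ensure fed libraries (median 38.2 CPM), and 34.3, 34.9, 35.95, 54.2 and 56.9 CPM in Ensure fasted ones. The fasted values fell into a low set of 3 below the fed range and a high pair above it, and the high pair, Ensure fasted 2 and 5, are those with the most epididymis and testis marker RNA. The log2 fold change was 0.13 ± 0.12 (edgeR adjusted p = 0.463), and -0.16 without the 5 marker-rich libraries. With HFD it was 0.11 ± 0.15, with 34.2 to 37.9 CPM fed and 35.2 to 43.8 CPM fasted, and the highest fasted value was again in a marker-rich library, HFD fasted 24. Dnajb1 had no paired-unit match in either of its promoter windows.

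Hspb1 had 23.3 to 36.6 CPM in Ensure fed libraries (median 34.0 CPM) and 23.0, 29.8, 30.1, 30.4 and 31.4 CPM in Ensure fasted ones. Its log2 fold change was -0.16 ± 0.11 (edgeR adjusted p = 0.312) with Ensure and -0.14 ± 0.13 (adjusted p = 0.639) with HFD. Without Ensure fed 16, the low fed library at 23.3 CPM, the Ensure value was -0.28 (edgeR adjusted p = 0.0369), which passed. With HFD, Hspb1 passed in 1 of 28 alternatives. Its promoter stretch (RefSeq, GRCm38.p6, chr5:135887769-135887918, plus strand) is shown because it holds paired units at 117 and 97 bases before the start, in capitals, in a gene that did not pass in the fit of all libraries.
Hspb1: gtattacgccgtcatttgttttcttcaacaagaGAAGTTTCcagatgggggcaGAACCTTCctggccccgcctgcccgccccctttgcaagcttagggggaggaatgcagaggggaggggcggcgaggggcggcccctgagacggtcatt

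Hsph1 (HSP105) is the exchange factor that resets HSP70, and Hsp90aa1 is the inducible HSP90. Both fell with Ensure fasting in the fit of all libraries. Hsph1 ran from 54.6 to 74.5 CPM in Ensure fed libraries (median 61.7 CPM) and had 39.7, 39.98, 41.0, 45.7 and 49.2 CPM in fasted ones, without overlap. Its log2 fold change was -0.56 ± 0.16 (edgeR adjusted p = 0.02). Hsp90aa1 was tight in Ensure fed libraries, at 66.9 to 72.3 CPM (median 68.3 CPM), and had 36.3, 39.6, 40.2, 46.6 and 63.9 CPM in fasted ones. Every fasted library was below every fed one, with Ensure fasted 2 closest, and the log2 fold change was -0.61 ± 0.15 (edgeR adjusted p = 0.00807). Both calls ended with lane as a term (edgeR adjusted p = 0.0784 for Hsph1 and 0.0622 for Hsp90aa1), and that of Hsph1 also without the 5 marker-rich libraries (adjusted p = 0.0842).

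With HFD the same genes varied widely among fed libraries, and the groups overlapped. Hsph1 had 42.3, 47.0, 79.0 and 84.4 CPM fed and 43.4, 53.8, 54.1 and 54.1 CPM fasted. Hsp90aa1 had 51.2, 59.6, 75.6 and 84.8 CPM fed and 47.6, 49.1, 62.1 and 64.0 CPM fasted. In both genes HFD fed 21 and 25 were the high pair and HFD fed 22 and 27 the low pair, and the same split showed in Hspa8. The log2 fold changes were -0.30 ± 0.18 for Hsph1 and -0.28 ± 0.17 for Hsp90aa1 (edgeR adjusted p = 0.455 and 0.443). The promoter stretch of Hsph1 (RefSeq, GRCm38.p6, chr5:149636337-149636486, minus strand) is shown because the gene has a run of 3 units, GAANNTTCNNGAA or TTCNNGAANNTTC. Such a run was found in 3 of the 7 members with a window, in 0.662% of 27025 genes and in 0.603% of all windows. Among those members, Hspd1 and Hspe1 share the same run. The run of Hsph1 lies 37 bases after the start, outside the stretch. Capitals mark the paired units at 33 bases before that start.
Hsph1: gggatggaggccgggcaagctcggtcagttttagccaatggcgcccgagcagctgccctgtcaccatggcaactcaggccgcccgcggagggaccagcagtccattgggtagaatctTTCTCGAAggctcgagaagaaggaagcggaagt

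Hspa8 (HSC70) and Hsp90ab1 (HSP90 beta) are the chaperones that resting cells make in quantity. Hspa8 ran from 223 to 265 CPM in Ensure fed libraries (median 240.0 CPM) and had 144, 165, 174, 181 and 183 CPM in Ensure fasted ones, without overlap. Its log2 fold change was -0.52 ± 0.16 (edgeR adjusted p = 0.0306), and the call ended without Ensure fed 1 (adjusted p = 0.0596) or Ensure fasted 2 (adjusted p = 0.0506). With HFD the fed libraries had 138, 146, 193 and 202 CPM and the fasted ones 136, 143, 168 and 281 CPM. The value of 281 CPM, in HFD fasted 28, was the highest of all 19 libraries, and the log2 fold change of 0.10 ± 0.19 (edgeR adjusted p = 0.804) was -0.17 without that library. In that library macrophage markers summed to 5909 CPM and 12 immediate-early genes to 1214 CPM, where the group's median was 685 CPM; their part in the result was not tested.

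Hsp90ab1 did not pass in either diet. It had 812 to 900 CPM in Ensure fed libraries (median 871 CPM) and 645, 689, 728, 753 and 903 CPM in Ensure fasted ones, of which 1 value, in Ensure fasted 5, was above the whole fed range. The log2 fold change was -0.21 ± 0.09 (edgeR adjusted p = 0.115) and, without Ensure fasted 5, -0.33 (adjusted p = 0.00874), which passed. With HFD it had 742, 824, 915 and 940 CPM fed and 664, 728, 761 and 781 CPM fasted, and a log2 fold change of -0.22 ± 0.11 (edgeR adjusted p = 0.346).

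Hspd1 and Hspe1 encode the barrel and the lid of the mitochondrial chaperonin and start close together on opposite strands of chromosome 1. The annotated genes overlap there, with the outer start of Hspd1 at 55088243 (minus strand) and Hspe1 starting at 55088132 (plus strand). Hspd1 has 2 RefSeq windows (GRCm38.p6). The one at the outer start has no paired-unit match, and the other shares 285 bases with the window of Hspe1, chr1:55087898-55088182, and within these lies a run of 4 heat shock units over 18 bases at chr1:55088059-55088076. The stretch before Hspe1 (chr1:55087998-55088147, plus strand) is shown with that run in capitals, followed by the run as it reads on the Hspd1 strand, since the run lies in a window of each gene and both fell with Ensure fasting.
Hspe1: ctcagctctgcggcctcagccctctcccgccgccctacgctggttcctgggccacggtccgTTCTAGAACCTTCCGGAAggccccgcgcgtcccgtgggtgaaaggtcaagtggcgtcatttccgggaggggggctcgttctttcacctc
Hspd1, shared run: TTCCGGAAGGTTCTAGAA

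Hspd1 was the member with the smallest p with Ensure. It ran from 125 to 151 CPM in Ensure fed libraries (median 137 CPM) and had 63.4, 66.1, 98.0, 103 and 104 CPM in fasted ones, all below the fed range. Its log2 fold change was -0.66 ± 0.12 (edgeR adjusted p = 0.00138). Hspe1 ran from 28.8 to 34.3 CPM fed (median 31.7 CPM) and had 16.6, 18.0, 24.8, 25.4 and 25.4 CPM fasted, again without overlap, with a log2 fold change of -0.52 ± 0.12 (edgeR adjusted p = 0.00556). In both genes the lowest pair was Ensure fasted 2 and 5, the libraries in which Dnajb1 was highest. Without the 5 marker-rich libraries the log2 fold change was -0.41 for Hspd1 (edgeR adjusted p = 0.0146) and -0.34 for Hspe1 (adjusted p = 0.0512).

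With HFD, Hspd1 had 110, 116, 120 and 127 CPM fed and 74.8, 76.6, 83.5 and 86.0 CPM fasted. The groups were well apart, and the log2 fold change of -0.56 ± 0.14 lay just beyond the threshold (edgeR adjusted p = 0.0613); it passed in 8 of 28 alternatives, DESeq2 and limma voom among them. Hspe1 had 24.9, 26.9, 28.0 and 28.4 CPM fed and 19.04, 21.8, 22.7 and 27.7 CPM fasted, which overlap through HFD fasted 28, and a log2 fold change of -0.25 ± 0.14 (edgeR adjusted p = 0.409).

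Of the 10 members, 6 had Ensure groups without overlap (15% of all genes tested did) and 2 had HFD groups without overlap (8.45% of all genes). Lane and feeding were partly joined in the Ensure libraries. With lane as a term 0 of 10 members passed edgeR's test, where 760 of 16015 genes did, and 6 had an unadjusted p under 0.05. Within lane 5 the 1 fed library had 129 CPM of Hspd1 and the 4 fasted ones 63.4 to 104 CPM, and within lane 6 the 4 fed libraries had 125 to 151 CPM and the 1 fasted library 98.0 CPM. The same reading for Hsp90aa1 gave 66.9 CPM against 39.6 to 63.9 CPM in lane 5 and 67.1 to 72.3 CPM against 36.3 CPM in lane 6. For Hspa1a it gave 2.82 CPM against 4.04 to 25.8 CPM in lane 5 and 2.15 to 2.81 CPM against 4.46 CPM in lane 6. Hspa1b overlapped in lane 5, with 6.34 CPM fed against 5.72 to 51.1 CPM fasted, and had 4.59 to 6.36 CPM against 8.32 CPM in lane 6. In Hspa8, Hsph1 and Hspe1 the fasted libraries of each lane were all below its fed ones. Each of these within-lane readings has 1 library on one side, so the direction is a description. The log2 fold changes with lane as a term were 1.33 for Hspa1a, 1.09 for Hspa1b, -0.54 for Hspa8, -0.71 for Hsp90aa1, -0.68 for Hsph1, -0.56 for Hspd1 and -0.42 for Hspe1, with edgeR adjusted p from 0.0563 (Hspd1) to 0.395 (Hspa1b). Without the 5 marker-rich libraries, 2 of 10 members passed, Hsp90aa1 (-0.80, edgeR adjusted p = 0.0136) and Hspd1, where 1145 of 15553 genes did.

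**Figure D3:**
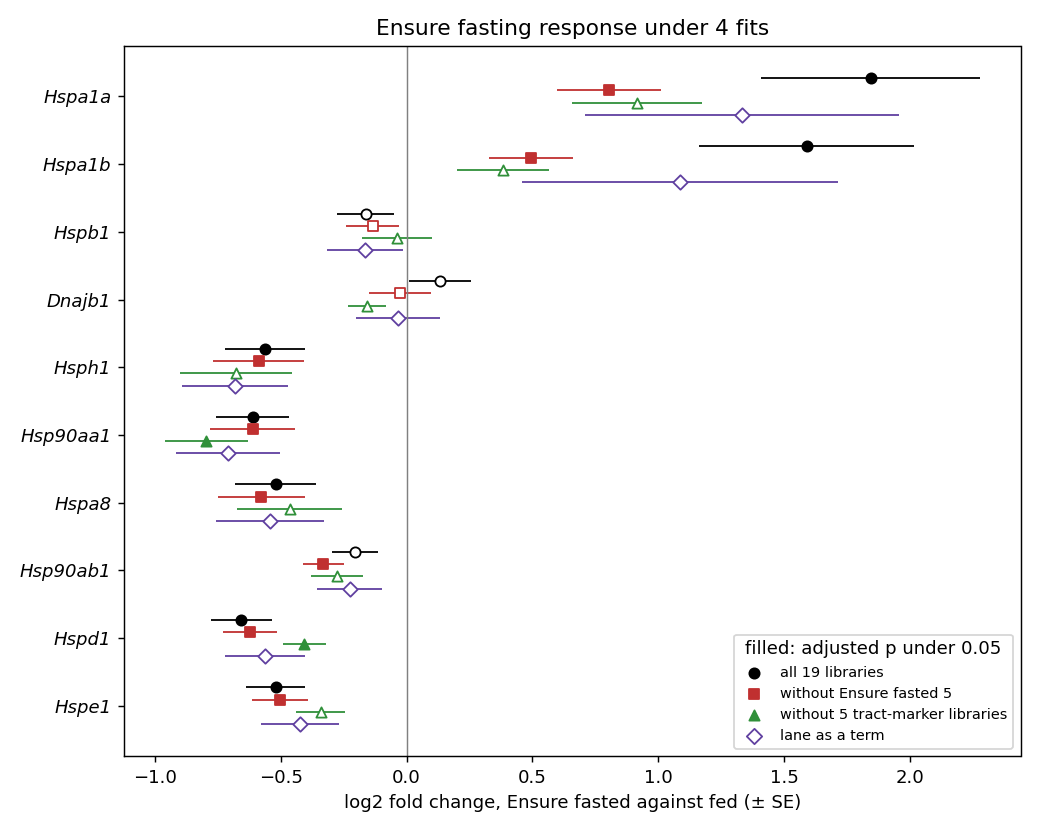
Log2 fold change of each member, Ensure fasted against fed, with its standard error, under 4 fits: all 19 libraries, without Ensure fasted 5, without the 5 libraries rich in epididymis and testis markers, and with sequencing lane as a term; filled points passed an adjusted p under 0.05. Hspa1a moved from 1.84 to 0.80 without Ensure fasted 5, whereas Hspd1 stayed between -0.66 and -0.41.

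In the test of the difference between the fasting responses (Ensure minus HFD) 0 of 10 members passed edgeR's test, as did 0% of all genes tested. DESeq2 called 0 of 10 and 65 of 16015 genes, and limma voom called 1 of 10 and 1170 of 16015 genes. That member was Hsp90aa1 (-0.76, limma voom adjusted p = 0.0094), which in edgeR was at -0.33 ± 0.22 (edgeR adjusted p = 0.79). By edgeR 1 member had an unadjusted p under 0.05, Hspa8, at -0.62 ± 0.25 (edgeR adjusted p = 0.57), and -0.40 without HFD fasted 28. Hspa1a differed by 1.22 ± 0.66 and Hspa1b by 1.25 ± 0.66, and without Ensure fasted 5 by 0.16 and 0.13. Hspd1 differed by -0.10 ± 0.18 (edgeR adjusted p = 0.93), an estimate smaller than its standard error, so the sign of the difference is not settled.

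Between the diets, fed libraries of Ensure and HFD are the same libraries as in the fasting contrasts. In fed mice 0 of 10 members passed edgeR's test, where 4.26% of all genes did, and 1 had an unadjusted p under 0.05. DESeq2 called 1 of 10 and 1551 of 16015 genes, and limma voom called 4 of 10 and 5441 of 16015 genes. The member with the smallest edgeR p was Hspa8, with 138 to 202 CPM in HFD fed libraries and 223 to 265 CPM in Ensure fed ones, without overlap. Its log2 fold change was 0.52 ± 0.17 (edgeR adjusted p = 0.102). Hspe1 was also without overlap, at 24.9 to 28.4 CPM with HFD and 28.8 to 34.3 CPM with Ensure (log2 fold change 0.23 ± 0.12, edgeR adjusted p = 0.365). Hspa1a and Hspa1b had lower values in every Ensure fed library than in every HFD fed one, with log2 fold changes of -0.67 ± 0.45 and -0.26 ± 0.45. Thus 4 members had groups without overlap, where 13.3% of all genes tested did. In fasted mice 0 of 10 members passed edgeR's test (2.82% of all genes did), and 0 had an unadjusted p under 0.05 by edgeR. DESeq2 called 0 of 10 and 1295 of 16015 genes, and limma voom called 1 of 10 and 3418 of 16015 genes. Of the 10 members, 0 had groups without overlap (3.99% of all genes did).

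Within groups, members did not move as one. After the group mean was taken off the log2 CPM, the closest pairs over the 19 libraries were Hspa1a with Hspa1b (Spearman's rho 0.735), Hsp90aa1 with Hsph1 (0.642) and Hspd1 with Hspe1 (0.596), and the most opposed was Dnajb1 with Hspe1 (-0.718). Libraries share their lane, depth and tissue makeup in these values, so they are a description. Ensure fasted 5 held the highest level of 3 members (Hspa1a, Hspa1b and Dnajb1) and HFD fed 21 of 3 others.

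**Figure D4:**
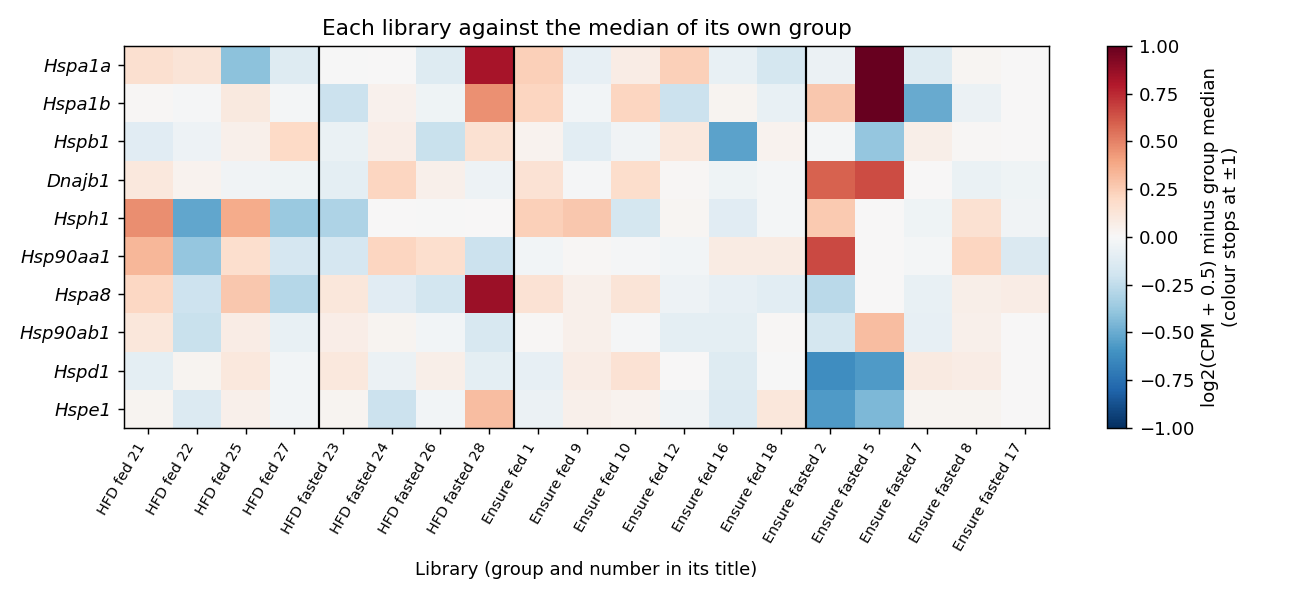
Each library's log2(CPM + 0.5) minus the median of its own group, for every member; red is above, blue below, and the colour stops at ±1. Ensure fasted 5 is dark red for Hspa1a and Hspa1b, HFD fasted 28 is red for Hspa1a and Hspa8, and Ensure fasted 2 and 5 are blue for Hspd1 and Hspe1 and red for Dnajb1.

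The genes whose levels followed a member most closely, by Spearman's rho over the same 19 centred values among 11668 genes with a mean of at least 5 CPM, were looked up for 6 members and held no other member in the first 5. For Hspd1 they were Trappc4 (0.947), Emc2 (0.942), Idh3a (0.942), Epb4.1l2 (0.935) and Ccser2 (0.928), and for Hspa8 Rrp7a (0.937), D17H6S53E (0.935), Psmc4 (0.912), Tubb2a (0.889) and Alg3 (0.884). Dnajb1 was closest to Pgp (0.914), Ramp3 (0.907), Cad (0.905), Amhr2 (0.904) and Osbp2 (0.904). Hspa1a was closest to Trabd (0.902), Pfas (0.882), Tpm1 (0.881), Amigo3 (0.870) and Nqo1 (0.868), and Hspa1b to Bri3bp (0.884), Prmt1 (0.875), Psph (0.874), Ccdc107 (0.860) and Shmt2 (0.860). Hsph1 had lower values, led by Tmem37 (0.772), Gtse1 (0.763), Ak1 (0.758), Map3k14 (0.756) and Tsku (0.754).

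Other genes of the chaperone network were read in lists, where over all genes tested 10.6% rose and 9.77% fell with Ensure fasting and 1.22% passed with HFD. Of 14 inducible co-chaperones, 0 rose and 8 fell with Ensure fasting, with a list median of -0.41. They include Stip1, the adaptor that joins HSP70 to HSP90 (-0.66, edgeR adjusted p = 2.92e-05), Hspa4, an HSP110 protein (-0.66, adjusted p = 0.000104) and Hspb8, a small heat shock protein (-0.69, adjusted p = 0.00172). Stip1 had 81.8 to 95.2 CPM in Ensure fed and 53.7 to 60.0 CPM in Ensure fasted libraries. With lane as a term Stip1 still passed (-0.63, edgeR adjusted p = 0.00303), as did Hspa4 and Hspb8. In that fit 4 of the 14 passed, where 760 of 16015 genes did in either direction. With HFD the same list had 0 higher and 1 lower, Stip1 (-0.39, edgeR adjusted p = 0.0289), at 65.4 to 85.5 CPM fed and 54.2 to 59.3 CPM fasted.

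The cytosolic chaperonin TRiC folds actin and tubulin, and 6 of its 8 subunit genes fell with Ensure fasting and 0 rose, led by Cct6a (-0.62, edgeR adjusted p = 0.000115), Cct3 (-0.57, adjusted p = 0.000817), Cct5 (-0.26, adjusted p = 0.00342) and Cct8 (-0.50, adjusted p = 0.00405). With lane as a term 2 of 8 passed, Cct6a and Cct3, where 760 of 16015 genes did in either direction. Of 15 mitochondrial chaperones and proteases, 5 fell and 0 rose, among them Hspa9, the mitochondrial HSP70 (-0.66, edgeR adjusted p = 0.000796), its exchange factor Grpel1 (-0.52, adjusted p = 0.00213), its HSP40 partner Dnaja3 (-0.41, adjusted p = 0.00637) and the import protein Timm44 (-0.33, adjusted p = 0.00672); with lane as a term 1 of 15 passed, Hspa9. With HFD 0 of the 8 and 0 of the 15 passed edgeR's test.

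Other lists split, and their counts stand beside 10.6% higher and 9.77% lower over all genes tested. These counts are from the fit of all libraries, and lane as a term is given for the ER chaperones alone. The fit without the 5 marker-rich libraries is not given for any chaperone list. How far these calls depend on the fit is therefore not shown here. Of 14 further HSP70 and HSP40 genes, 4 fell with Ensure fasting (Hspa12a at -1.07, Hspa14 at -0.68, Dnaja2 at -0.45 and Dnajc5 at -0.28) and 2 rose (Dnajb6 at 0.44 and Dnajc7 at 0.25). Of 14 HSP90 co-chaperones and exchange factors, Fkbp5, a glucocorticoid-induced HSP90 partner, rose by 1.34 on the log2 scale (edgeR adjusted p = 0.000594) and Ahsa2 fell by 0.33 (adjusted p = 0.00714). Of 12 ER chaperones 3 rose, Pdia4 (0.38), Pdia6 (0.34) and Creld2 (0.57), and 0 fell. With lane as a term 0 of the 12 passed, where 760 of 16015 genes did in either direction. Of 5 small heat shock proteins tested, 1 fell, Hspb7 (-0.71), and of 6 prefoldin subunits 0 passed. Of 6 heat shock factors and regulators, Vcp, an unfolding ATPase, fell (-0.33) and Hdac6 rose (2.22), with 481 CPM in Ensure fasted 5, 76.1 CPM in Ensure fasted 2 and 19.5 to 47.1 CPM in the other libraries; Hsf1 itself did not pass in either diet.

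Between diets, 3 inducible co-chaperones were higher in Ensure fed than in HFD fed libraries: Dnaja1, an HSP40 (0.45), Stip1 (0.29) and Serpinh1, a collagen chaperone (0.95), where 4.26% of all genes tested passed in either direction. In fasted libraries Fkbp5 (1.68), the co-chaperone Bag1 (0.38) and the ER chaperones Hspa5 (0.65), Pdia4 (0.50) and Pdia6 (0.61) were higher with Ensure, where 2.82% of all genes passed. With lane as a term 0 of these 8 calls passed edgeR's test. In that fit 2 of 16015 genes passed between fed diets and 0 between fasted diets. Each HFD library was in lane 7, as was 1 Ensure library.

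**Figure D5:**
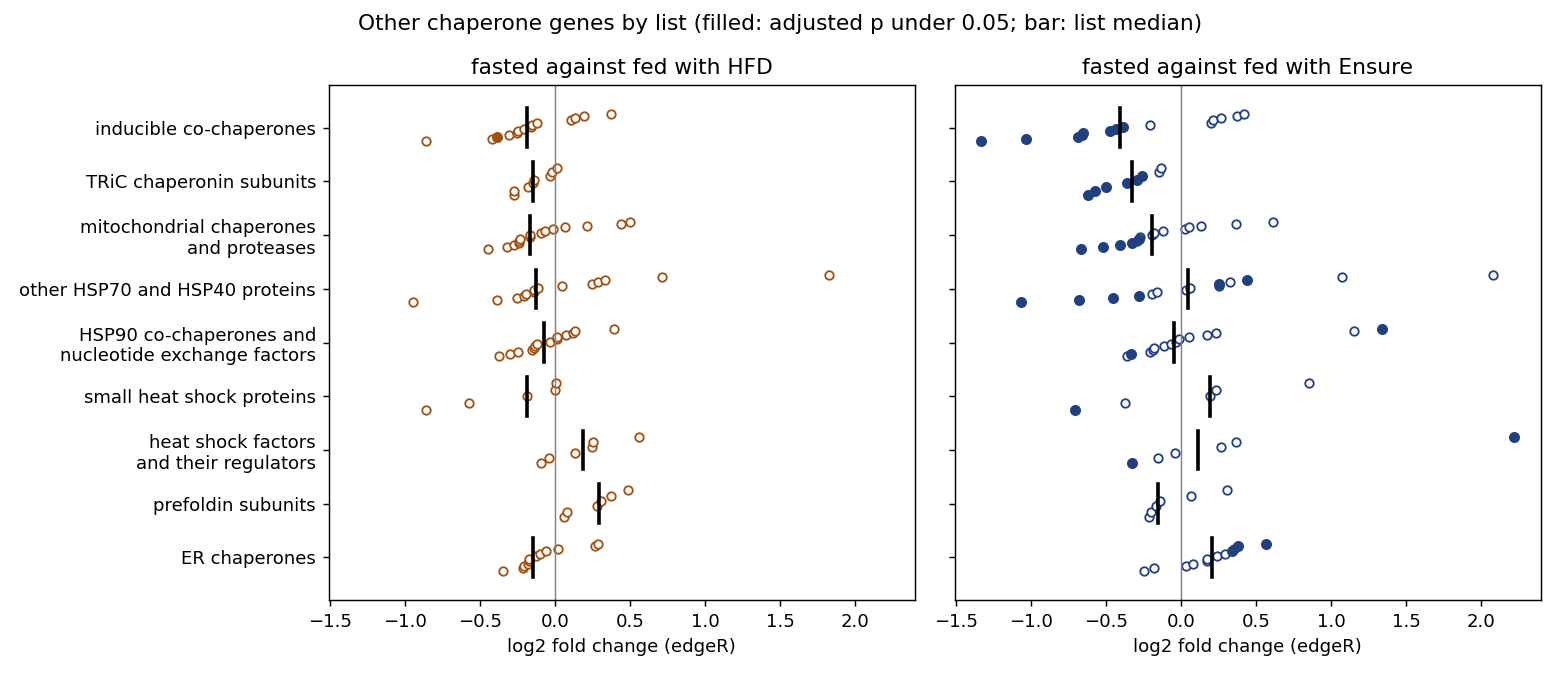
Log2 fold change, fasted against fed, of each gene in 9 chaperone lists, with HFD on the left and Ensure on the right; filled points passed an adjusted p under 0.05 and the black bar is the list median. With Ensure the inducible co-chaperones and TRiC subunits have medians of -0.41 and -0.33, and with HFD the 1 filled point is Stip1.

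HSP70 relatives made mainly in germ cells were high in 3 of the 5 marker-rich libraries. Hspa1l, a testis HSP70, had 42.0 CPM in Ensure fasted 2, 22.0 CPM in HFD fasted 24 and 9.10 CPM in Ensure fasted 5, against 1.58 to 6.46 CPM in the others. Hspa2, an HSP70 of spermatocytes, had 71.8, 43.4 and 47.5 CPM in the same libraries, against 8.11 to 26.8 CPM elsewhere. Sperm-cell markers summed to 601, 262 and 113 CPM there.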

How the data were processed

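Per the labels' protocols, RNeasy-purified RNA was poly-A selected, made into TruSeq libraries and sequenced on a HiSeq2000. Reads were handled with TopHat2 2.1, HTSeq 0.6.1 and bcl2fastq 1.8.4 on build mm9, per the submitters' processing notes, with a strand setting not given in the sources used here. What the authors deposited was whole-number counts per gene for each library, not normalized. HTSeq's summary lines (13.01 to 17.32% outside genes, 0.695 to 0.893% ambiguous, 20.67 to 27.7% not unique) were left out of tests.

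All 19 libraries went into 1 edgeR 4.0.16 quasi-likelihood fit (R 4.3.3) of 4 groups with TMM scaling, filterByExpr at a minimum count of 10 and Benjamini-Hochberg adjustment over 16015 genes. The SE is the log2 fold change over the square root of F. Alternatives used limma 3.58.1 and DESeq2 1.42.0. Hspa1a and Hspa1b had the fewest counts of the members, so counting error weighs most on them. Named genes were all members, up to 4 called genes per other list by smallest p, and the 5 genes most like each of 6 members. A gene of 1 list is not reported by name here. Others were named after their values were seen: Dnajc5, Dnajc7, Hspa1l, Hspa2 and Hsf1. The members and lists were chosen with earlier results of these data known. Promoters are RefSeq GRCm38.p6 and gene lengths GENCODE GRCm38, another build than the counts.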

Additional observations from a re-analysis of the deposited data

Results flagged for a closer look

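In 5 of 40 sets of member and group, 1 library stood apart from the rest of its group by more than Dixon's 95% critical value. Chance alone gives about 5% for a single set. The sets share libraries and are not independent, so the count cannot be weighed against that 5%. Hspa1a, Hspa1b and Hspb1 were flagged in the same library, Ensure fasted 5. Hspa1a had 25.8 CPM in Ensure fasted 5, with 4.04 to 4.55 CPM in the other 4 libraries. Hspa1b had 51.1 CPM in Ensure fasted 5, with 5.72 to 10.1 CPM in the others. Hspb1 had 23.0 CPM in Ensure fasted 5, with 29.8 to 31.4 CPM in the others. Hspa1a had 9.15 CPM in HFD fasted 28, with 4.48 to 4.95 CPM in the other 3. Hsph1 had 43.4 CPM in HFD fasted 23, with 53.8 to 54.1 CPM in the others.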

How the results depend on the processing

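The count of members called with Ensure fasting (7) stayed at 6 to 8 with other scaling, no filter, DESeq2, limma voom and the groups compared alone, was 0 with lane as a term and 2 without the 5 marker-rich libraries and 5 without those and HFD fasted 28, and ran from 6 to 8 when each library was left out in turn. Over all genes, 3255 of 16015 were called in the main fit, 4390 with DESeq2, 5638 with limma voom and 760 with lane as a term. With the groups compared alone 3602 of 14734 were called. Without the 5 marker-rich libraries 1145 of 15553 were called, and 2475 of 15843 without those and HFD fasted 28. With HFD fasting (0) the count of members was 1 with library size alone, 1 with DESeq2, 3 with limma voom, 1 without the 5 marker-rich libraries, 1 also without HFD fasted 28 (chosen after seeing the data), and 0 to 1 on leaving out each library. Over all genes, 160 of 16015 were called with library size alone, 633 with DESeq2 and 2974 with limma voom. Without the 5 marker-rich libraries 143 of 15553 were called, and 56 of 15843 also without HFD fasted 28. Between fed diets (0) the count of members was 1 with DESeq2, 4 with limma voom, 4 with the groups compared alone, 2 without those 5 libraries and HFD fasted 28, and 0 to 1 on leaving out each library. Over all genes, 1551 of 16015 were called with DESeq2, 5441 with limma voom, 2933 of 14838 with the groups compared alone and 1427 of 15843 in the last fit. For the difference of responses and for fasted diets limma voom gave 1 member each, where it called 1170 and 3418 of 16015 genes. Leaving out each library gave 0 to 0 members in both. No called member changed direction in the alternatives run. DESeq2 gave no adjusted p for Hspa1a, which is not counted as a lost call. The causes were not tested. No paired analysis was possible because no replicate number is shared between groups.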
